A study of Mus musculus with 12 samples.

Results

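Collagens are the structural proteins of the extracellular matrix, each built from 3 chains wound into a triple helix. The genes described here are the 42 mouse collagen chain genes, of 29956 named genes measured in wounded diabetic skin, whose symbol has the form Col, a number, a and a number and whose counts summed over the 12 libraries reached 15. Col17a1, the transmembrane collagen of the keratinocyte, was left out by that rule. Just outside the minimum was Col9a1, with a summed estimated count of 14.0, and the lowest gene inside it was Col2a1, with 75.2. They were placed by what they build: 11 fibrillar chains, 9 basement membrane chains, 8 FACIT chains (fibril-associated collagens with interrupted triple helices) and 14 others.

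All animals carried the genotype B6.BKS(D)-Leprdb/db, in which the leptin receptor does not signal and mice become obese and diabetic, and all were sampled on day 3 after full-thickness punch wounding of the back. The wounds of 4 mice received vehicle (buffered saline with glycerol), those of 4 received Alcaligenes faecalis, a Gram-negative bacterium, and those of 4 received Staphylococcus aureus, a Gram-positive skin pathogen. The study has no unwounded, non-diabetic or later group, so the values describe early diabetic wounds only. The title of the study names matrix metalloproteinases, the enzymes that cut collagens among other matrix proteins, and re-epithelialization. The comparisons below ask how the RNA of the collagens themselves stood under each treatment.

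In a healing skin wound, types I and III form the load-bearing fibrils, type V chains sit inside those fibrils, and FACIT collagens coat them. Type IV forms the sheet of the basement membrane under epidermis and around vessels, fat cells and nerves, type VII anchors the epidermal sheet to the dermis, and types XV and XVIII are basement membrane proteoglycans. Type VI makes beaded filaments around cells. Fibroblasts make most fibrillar collagen, and new chains need hydroxylation and chaperones in the endoplasmic reticulum, cutting of their ends outside the cell, and cross-linking before they hold load.

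Library totals were 51.9 to 62.4 M (mega) estimated counts with vehicle, 42.2 to 71.3 M with A. faecalis and 38.4 to 58.4 M with S. aureus. Levels are given as CPM (counts per M of scaled library size). The share of each class in all collagen and the order of single chains use CPM per kb of the longest protein-coding transcript. Chain ratios, sums over lists and ranges over genes are in CPM unless per kb is stated, and CPM is not corrected for transcript length. A gene was called when edgeR's quasi-likelihood test gave a Benjamini-Hochberg adjusted p under 0.05 over all 18218 genes tested, and every adjusted p below is from that test unless another is named. Of the 42 genes 41 were tested, and Col2a1, at 0 to 26.8 estimated counts per library, did not pass the filter on low counts. Vehicle library 3 stood apart from the other libraries, at -72.6 on a first principal component that took 32.8% of the variance. Its summed level of 10 adipocyte markers was 15513 CPM, against 3443 to 4644 CPM in the other vehicle libraries.

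The cells in these whole-skin samples were checked through lists of marker genes. Of 14 fibroblast markers none was at 0, and their summed level was 2065 to 2719 CPM with vehicle, 2095 to 2468 CPM with A. faecalis and 2523 to 3200 CPM with S. aureus. Against vehicle, S. aureus wounds had higher Pdgfra, Pdgfrb and Thy1 and lower Dpt and Clec3b among them. Summed neutrophil markers were 9362 to 14868 CPM with S. aureus, above the 718 to 8810 CPM of vehicle and the 1781 to 4214 CPM of A. faecalis. Of these 8 markers edgeR called only Camp higher against vehicle, beside 3.87% of all genes. Against A. faecalis it called 5 higher, beside 7.62% of all genes. Summed endothelial markers were 1380 to 1528 CPM with S. aureus, 878 to 1290 CPM with vehicle and 961 to 1358 CPM with A. faecalis. All 10 adipocyte markers had a negative log2 fold change with S. aureus against vehicle (median -1.30). An unadjusted p under 0.05 was reached by 9 of the 10, beside 27.0% of all genes. None was called by edgeR or limma-voom, and 6 were by DESeq2, whose share over all genes is not given here. Their summed level was 2098 to 3920 CPM with S. aureus and 3857 to 5914 CPM with A. faecalis. Of 6 cartilage markers, 5 were found and summed to 1.76 to 2.90 CPM in all 12 libraries. In bulk skin, fewer cells of a type and less RNA per cell cannot be told apart, and the part of these marker differences in the collagen results was not tested.

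Collagens took a similar share of the RNA in the 3 groups. Their summed share of all counts was 3.16% ± 0.790 (mean ± SD, n = 4) with vehicle, 2.79% ± 0.421 with A. faecalis and 3.01% ± 0.225 with S. aureus, and the ranges overlapped. Per kb, fibrillar chains made up 78.0% ± 5.05 of all collagen with vehicle, 77.7% ± 1.32 with A. faecalis and 76.3% ± 1.82 with S. aureus. Basement membrane chains made up 11.8%, 12.3% and 14.1% in the same order, other chains 8.44%, 8.40% and 7.38%, and FACIT chains 1.79%, 1.65% and 2.21%. Over all 12 libraries the order of single chains per kb was Col3a1 (1535 CPM per kb), Col1a1 (1280), Col1a2 (802), Col4a1 (288) and Col4a2 (210), and the lowest was Col2a1 (0.0235 CPM per kb), the main chain of cartilage.

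With A. faecalis no collagen gene was called against vehicle, and with S. aureus 9 were. In the comparison of A. faecalis with vehicle, 0.0110% of all genes were called by edgeR and 0 of 41 collagens. An unadjusted p under 0.05 was reached by 3 of 41 collagens (beside 7.68% of all genes). Limma-voom called 0, and DESeq2 called 2, Col7a1 lower and Col19a1 higher. Shares over all genes are not given for DESeq2 or limma-voom, here or below, so their counts are not set against all genes. With S. aureus against vehicle, 3 collagens rose and 6 fell, which is 22.0% of those tested beside 6.84% of all genes (3.87% higher and 2.97% lower). With S. aureus against A. faecalis, 5 rose and 3 fell, 19.5% beside 12.7% of all genes (7.62% higher and 5.06% lower). The 2 comparisons with S. aureus share its 4 libraries. A fit of only the S. aureus and vehicle libraries, without the spread of the third group, kept 3 of the 9 calls against vehicle, those of Col4a4, Col13a1 and Col23a1.

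The median log2 fold change of the 41 collagens was -0.13 with A. faecalis against vehicle (all genes -0.03), 0.08 with S. aureus against vehicle (all genes -0.04) and 0.17 with S. aureus against A. faecalis (all genes -0.02). Group levels did not overlap for 2 collagens in the first comparison, 10 in the second and 16 in the third, which is 4.88%, 24.4% and 39.0% of those tested. The same was true of 4.05%, 15.1% and 23.3% of all genes. In the plot of fold changes by class, the called genes lay in both directions and none was among the 10 fibrillar chains tested. At the shares of all genes called, 0 of 10 does not set that class apart.

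**Figure D1:**
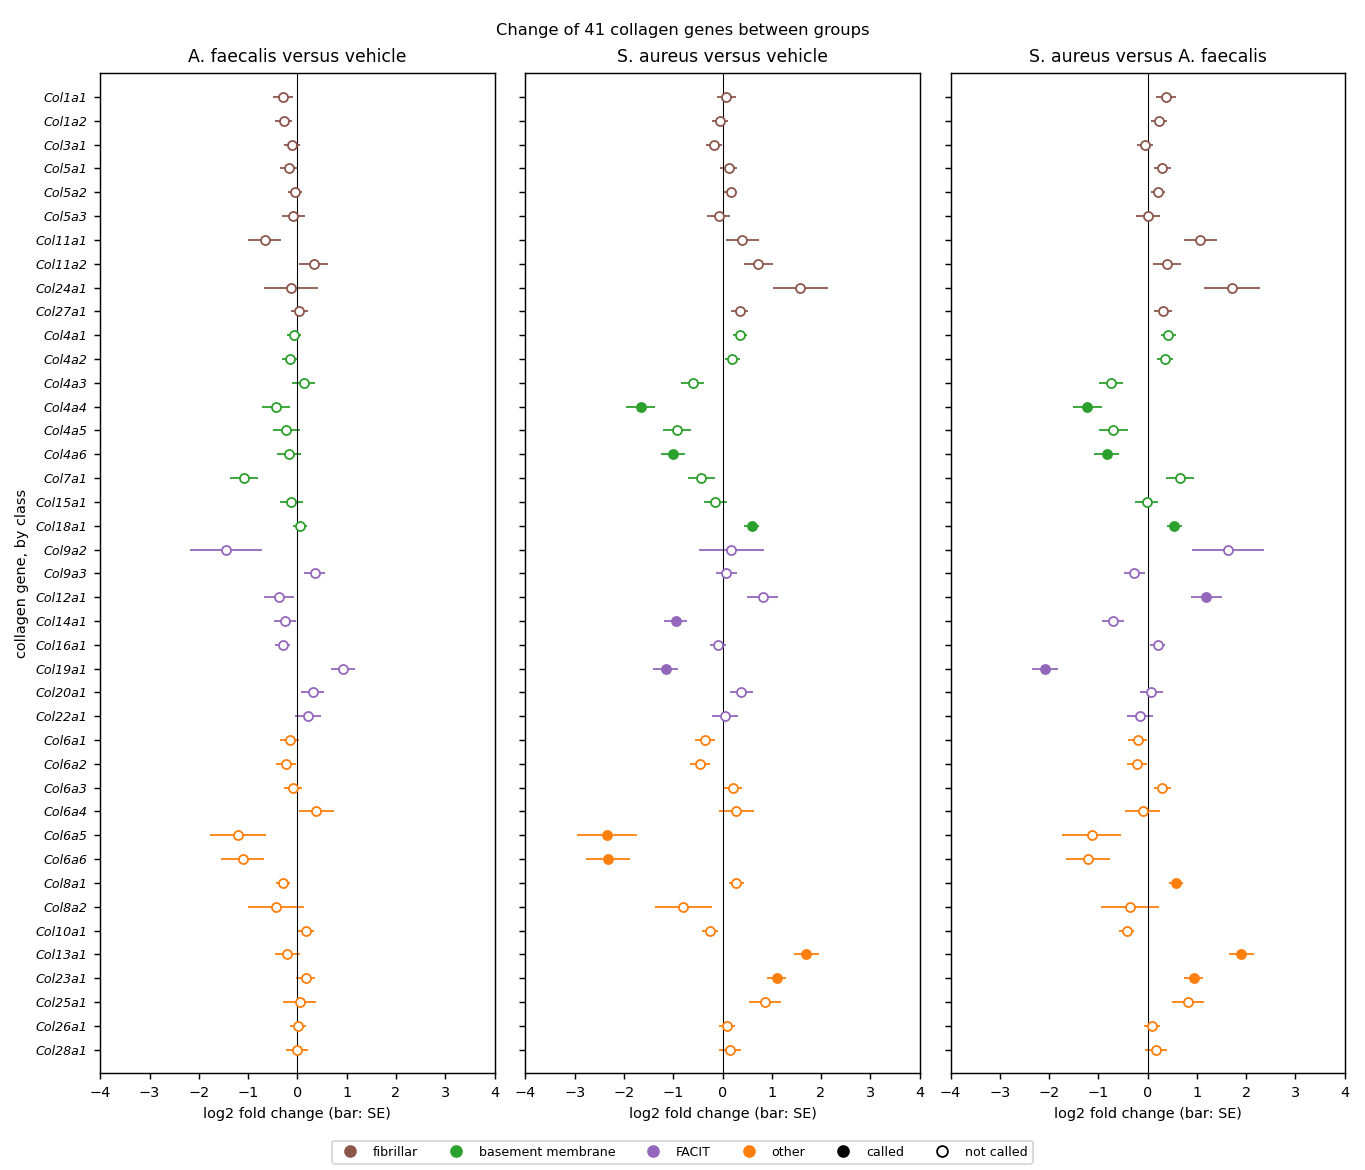
Log2 fold change of the 41 tested collagen genes in the 3 comparisons, with the standard error as a bar and filled points for called genes. Colours mark the 4 classes. No point is filled for A. faecalis against vehicle, and none of the 10 fibrillar genes is filled in any panel.

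The fibrillar chains, which make the bulk of dermal collagen, were the most abundant class, and none of the 10 tested was called in any comparison. Col1a1, the alpha1 chain of type I, was at 11067, 8640, 5211 and 6812 CPM in the 4 vehicle libraries, 7405, 5945, 6591 and 5979 CPM with A. faecalis, and 8730, 7429, 9154 and 8151 CPM with S. aureus. The vehicle libraries ran from the lowest to the highest of all 12, and every S. aureus library was above every A. faecalis library. The log2 fold change was -0.29 (SE 0.197, adjusted p = 0.725) with A. faecalis and 0.08 (SE 0.197, adjusted p = 0.841) with S. aureus, each against vehicle, and 0.37 (adjusted p = 0.248) between the bacteria. For S. aureus against vehicle the 95% interval was -0.31 to 0.46.

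Col3a1, the single chain of type III, which is prominent in young wound tissue, was at 11542, 9380, 8183 and 7230 CPM with vehicle. It was at 8742, 7503, 9073 and 8414 CPM with A. faecalis and 9272, 6635, 8985 and 7522 CPM with S. aureus, and all 3 groups overlapped. Its log2 fold change against vehicle was -0.11 (adjusted p = 0.881) with A. faecalis and -0.16 (adjusted p = 0.551) with S. aureus. Col1a2, the second chain of type I, was at 6064, 5021, 3682 and 3692 CPM with vehicle, 4361, 3423, 3860 and 3543 CPM with A. faecalis, and 4739, 3981, 4781 and 4346 CPM with S. aureus, again with overlap. Its log2 fold change against vehicle was -0.28 (adjusted p = 0.693) with A. faecalis and -0.05 (adjusted p = 0.881) with S. aureus.

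The minor fibrillar chains also did not pass by edgeR. The 3 type V chains, which sit in the core of type I fibrils, had log2 fold changes from -0.18 to 0.30 over all 3 comparisons. Col24a1 had the largest fibrillar difference, at 13.1, 7.57, 1.53 and 4.12 CPM with vehicle, 8.59, 8.15, 4.70 and 2.44 CPM with A. faecalis, and 16.9, 24.9, 24.6 and 12.1 CPM with S. aureus. Its log2 fold change with S. aureus was 1.58 (SE 0.558, adjusted p = 0.0992) against vehicle and 1.71 (SE 0.561, adjusted p = 0.0667) against A. faecalis. Col11a1, a type XI chain best known from cartilage, differed by 1.07 (adjusted p = 0.056) between S. aureus and A. faecalis, without overlap. Over the 10 fibrillar chains the median log2 fold change was 0.14 with S. aureus against vehicle and 0.31 against A. faecalis. At an unadjusted p under 0.05 there were 0, 2 and 2 fibrillar chains in the 3 comparisons, of which the last 2 had 27.0% and 28.2% of all genes at that level. Limma-voom called 0 in each, and DESeq2 called Col24a1 against vehicle and Col24a1 and Col11a1 against A. faecalis. In the last comparison a fit of only those 2 groups also called both, and a replicate block called Col24a1.

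Ratios of 2 chains within a library do not depend on library scaling, and 3 were tested by a two-sided exact permutation test of their log2 values. With 4 libraries against 4 the smallest p this test allows is 0.0286. The ratio of Col3a1 to Col1a1 in CPM was 1.04, 1.09, 1.57 and 1.06 with vehicle, 1.18, 1.26, 1.38 and 1.41 with A. faecalis, and 1.06, 0.893, 0.981 and 0.923 with S. aureus. Every A. faecalis library was above every S. aureus library, while vehicle library 3 was above all others. The difference between the bacteria had an exact permutation p of 0.0286, or 0.0643 after Benjamini-Hochberg adjustment over the 9 tests, so it did not pass.

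The ratio of Col1a1 to Col1a2, whose protein chains are joined at 2 to 1 in type I collagen, averaged 1.70 ± 0.199 (SD, n = 4) with vehicle, 1.71 ± 0.0213 with A. faecalis and 1.87 ± 0.0302 with S. aureus. Per kb those means were 1.53, 1.54 and 1.69. S. aureus libraries were above all A. faecalis libraries (exact permutation p = 0.0286, adjusted 0.0643). Against vehicle they overlapped (exact permutation p = 0.0571, adjusted 0.103). Vehicle library 3 was the lowest of all libraries, at 1.42, and the other vehicle libraries were at 1.72 to 1.84. The ratio of Col4a1 to Col4a2 averaged 1.35 ± 0.126 with vehicle, 1.40 ± 0.0196 with A. faecalis and 1.48 ± 0.0261 with S. aureus. Here S. aureus was above all libraries of either other group (exact permutation p = 0.0286 and adjusted 0.0643 for both). Vehicle library 3 was again the lowest, at 1.16, and the other vehicle libraries were at 1.37 to 1.44. The mean log2 difference from vehicle was 0.14, and as low as 0.071 with 1 library left out. No ratio test passed after adjustment, which was possible only with most of the 9 tests at the smallest p, so this outcome says little.

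**Figure D2:**
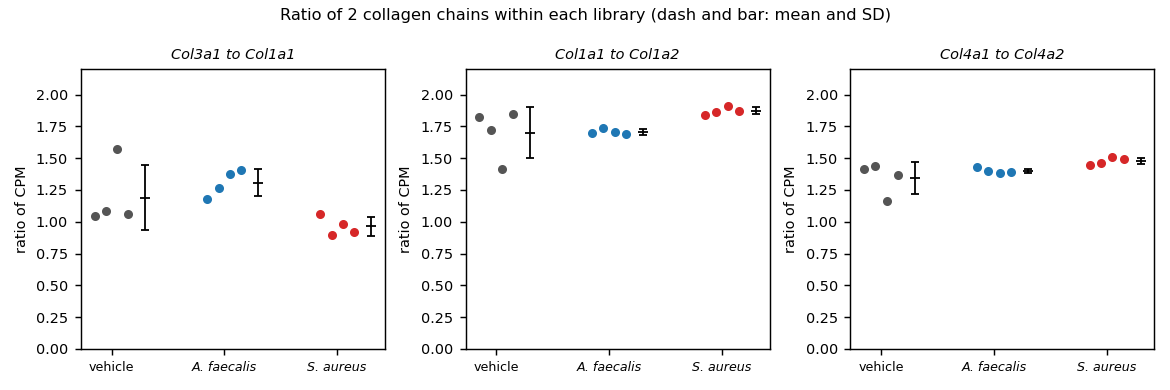
Ratio of CPM of 2 collagen chains within each of the 12 libraries, with group mean and SD as a dash and bar (n = 4). In the left panel vehicle library 3 is at 1.57, and the S. aureus libraries lie at 0.893 to 1.06, below the 4 A. faecalis libraries.

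Among basement membrane chains, 2 rare type IV chains, Col4a4 and Col4a6, fell with S. aureus and Col18a1 rose. These were the 3 called of 9 tested, against vehicle (33.3% beside 6.84% of all genes) as well as against A. faecalis (33.3% beside 12.7%), and none was called with A. faecalis against vehicle (1 at an unadjusted p under 0.05, 1 by DESeq2, 0 by limma-voom). Type IV collagen is built from 6 chains encoded by 3 pairs of neighbouring genes that face away from each other. Col4a1 and Col4a2 form the common network of nearly all basement membranes, and Col4a3 to Col4a6 form networks with a narrower spread, of which the chains of Col4a5 and Col4a6 are those usual in epidermal basement membrane.

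Col4a1 was at 1911, 1707, 2021 and 1419 CPM with vehicle, 2099, 1409, 1746 and 1485 CPM with A. faecalis, and 2288, 2273, 2240 and 2229 CPM with S. aureus. The S. aureus libraries lay within a narrow band, above every other library. The log2 fold change of 0.36 (SE 0.143, adjusted p = 0.136) against vehicle and 0.42 (SE 0.143, adjusted p = 0.0731) against A. faecalis did not pass. The second of these passed with DESeq2, and without A. faecalis library 1, the highest of its group, at a log2 fold change of 0.56. Col4a2 was at 1353, 1184, 1738 and 1036 CPM with vehicle, 1470, 1009, 1263 and 1067 CPM with A. faecalis, and 1577, 1553, 1488 and 1491 CPM with S. aureus. Vehicle library 3 exceeded all S. aureus libraries, and the log2 fold change was 0.20 (adjusted p = 0.453) against vehicle and 0.35 (adjusted p = 0.186) against A. faecalis.

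Col4a4, the alpha4 chain, was at 8.31, 7.99, 13.6 and 5.17 CPM with vehicle, 4.18, 6.06, 7.86 and 7.83 CPM with A. faecalis, and 3.50, 2.73, 2.08 and 2.75 CPM with S. aureus. Every S. aureus library was below every other library. Col4a4 fell 3.17-fold against vehicle (log2 fold change -1.66, SE 0.295, adjusted p = 0.012) and 2.34-fold against A. faecalis (-1.23, SE 0.293, adjusted p = 0.0192). The call against vehicle held in all 12 fits that left out 1 library, and without vehicle library 3 the log2 fold change was -1.36 (adjusted p = 0.0151). The call against A. faecalis was lost in 4 such fits, those without A. faecalis 3 or 4 or S. aureus 2 or 3, with an adjusted p of at most 0.0607.

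Col4a6, the alpha6 chain, was at 1.35, 1.19, 2.24 and 1.46 CPM with vehicle, 1.01, 1.19, 1.84 and 1.49 CPM with A. faecalis, and 0.679, 0.777, 0.864 and 0.779 CPM with S. aureus. Again all S. aureus libraries were the lowest. It fell 2.01-fold against vehicle (log2 fold change -1.01, SE 0.248, adjusted p = 0.0344) and 1.78-fold against A. faecalis (-0.83, SE 0.248, adjusted p = 0.0469). The first call was lost in 6 of 12 fits, those without vehicle 1 or 3 or any 1 S. aureus library, with an adjusted p up to 0.0875, and its log2 fold change without vehicle library 3 was -0.76 (adjusted p = 0.0692). The second was lost in 9 of 12 fits, those without vehicle 1 or 4, A. faecalis 2, 3 or 4, or any 1 S. aureus library, with an adjusted p up to 0.138, and with DESeq2 size factors, with limma-voom and with no filter on low counts.

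The partners of these 2 genes did not pass by edgeR. Col4a3 was at 3.61, 4.31, 4.95 and 3.04 CPM with vehicle, 4.39, 4.16, 4.77 and 4.13 CPM with A. faecalis, and 2.12, 4.09, 2.31 and 1.88 CPM with S. aureus. Its log2 fold change with S. aureus was -0.61 (adjusted p = 0.127) against vehicle and -0.74 (adjusted p = 0.0614) against A. faecalis, the second without overlap. Col4a5 was at 6.85, 6.48, 12.2 and 5.70 CPM with vehicle and 5.64, 2.94, 4.72 and 3.32 CPM with S. aureus, again without overlap (log2 fold change -0.92, SE 0.287, adjusted p = 0.0715). DESeq2 and a fit with a replicate block called Col4a5 against vehicle and Col4a3 against A. faecalis, and limma-voom called the latter. Thus all 4 rare chains had a negative log2 fold change against vehicle and both common chains a positive one. Of the 6, 2 passed the test. Vehicle library 3, the one with the high adipocyte markers, was the highest of all libraries for each of the 4 rare chains. Their summed level was 33.0 CPM there, against 15.4 to 20.1 CPM in the other vehicle libraries. The 4 chains share that library, and the part of adipocyte markers in their differences was not tested. The difference in response between the rare and the common chains was not itself tested. Basal keratinocyte markers, which belong to cells that lie on a basement membrane, summed to 1835 to 2706 CPM with vehicle, 1462 to 1799 CPM with A. faecalis and 1421 to 2809 CPM with S. aureus, and of the 6, Krt15 alone was called, lower with S. aureus.

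**Figure D3:**
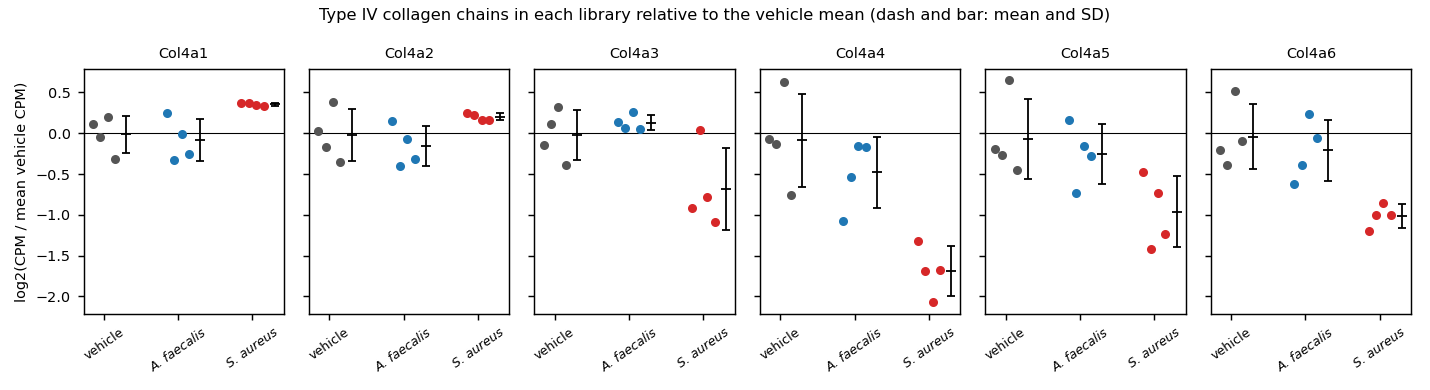
Type IV collagen chains in each library as log2 of CPM over the vehicle mean, with group mean and SD as a dash and bar (n = 4). The S. aureus libraries are above the vehicle mean for Col4a1 and Col4a2 and below all other libraries for Col4a4 and Col4a6, which are the called chains.

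The starts of these paired genes lie close together. In RefSeq, with coordinates of build GRCm38.p6, the starts of Col4a1 and Col4a2 are 21 bases apart on opposite strands and those of Col4a6 and Col4a5 are 1343 bases apart. Of the 42 collagens, 33 matched the RefSeq promoter table, with 35 starts. Those not found were Col12a1, Col14a1, Col1a1, Col22a1, Col26a1, Col2a1, Col4a3, Col5a2 and Col9a3. The 250 bases before the start of Col4a4 hold exon sequence of Col4a3, and those of Col4a1 and Col4a2 hold exon sequence of each other, in the GENCODE M21 annotation. The 250 bases before the start of Col4a6, at chrX:141474077-141474326 on the minus strand, hold no annotated exon and are shown as the upstream sequence of a chain that fell. Capitals mark the single match to GGGCGG or its reverse complement, the core of the GC box that binds factors of the Sp family.
Col4a6: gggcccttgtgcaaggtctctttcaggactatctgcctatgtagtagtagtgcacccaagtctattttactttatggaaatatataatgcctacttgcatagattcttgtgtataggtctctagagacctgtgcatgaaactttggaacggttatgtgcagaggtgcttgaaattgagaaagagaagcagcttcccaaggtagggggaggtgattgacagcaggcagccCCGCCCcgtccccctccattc

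Over the 250 bases before each start, GGGCGG was found on either strand in 62.9% of the 35 collagen starts and in 32.7% of all 32851 starts of the table. The CCAAT motif was found in 31.4% and 33.8%. The TATA motif, searched as TATAAA, was found in 11.4% and 12.4%. The site of AP-1 factors, searched as TGANTCA, was found in 2.86% and 6.75%. These letters describe the windows and show no binding.

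Among the other basement membrane chains, Col18a1 rose with S. aureus. Its protein is the heparan sulfate proteoglycan from whose end endostatin is cut. It was at 376, 318, 320 and 257 CPM with vehicle, 400, 261, 358 and 297 CPM with A. faecalis, and 433, 463, 509 and 509 CPM with S. aureus. All S. aureus libraries were above all others, 1.51-fold over vehicle (log2 fold change 0.59, SE 0.146, adjusted p = 0.0352) and 1.46-fold over A. faecalis (0.54, SE 0.146, adjusted p = 0.0313). The call against vehicle was lost in 7 of 12 fits that left out 1 library (vehicle 2, 3 or 4, A. faecalis 3, or S. aureus 2, 3 or 4; adjusted p up to 0.108). That against A. faecalis was lost in 6 (A. faecalis or S. aureus 2, 3 or 4; adjusted p up to 0.0921), and with upper-quartile scaling.

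The related Col15a1, at 377, 347 and 341 CPM on average, had log2 fold changes of -0.12, -0.15 and -0.02 in the 3 comparisons and was not called. The summed level of endothelial markers, which belong to cells that rest on basement membrane, was also highest in S. aureus libraries, as given above. Of the 8 markers, 6 had a positive and 2 a negative log2 fold change with S. aureus against vehicle (median 0.09). Pecam1 and Emcn were called higher and none lower. The part of these markers in the Col18a1 difference was not tested. Col7a1, which forms the anchoring fibrils under epidermis, was at 25.8, 15.7, 22.9 and 31.3 CPM with vehicle, 11.4, 11.5, 14.0 and 8.23 CPM with A. faecalis, and 10.4, 26.5, 18.1 and 15.9 CPM with S. aureus. All A. faecalis libraries were below all vehicle libraries, a log2 fold change of -1.08 (SE 0.277) whose adjusted p of 0.411 by edgeR did not pass, although DESeq2 called it. It was 1 of 2 collagens without overlap between A. faecalis and vehicle, where 4.05% of all genes had none. All 6 basal keratinocyte markers had a negative log2 fold change with A. faecalis, with a median of -0.49, and none was called. Their part in the Col7a1 difference was not tested.

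FACIT collagens, which decorate the surface of fibrils, included called genes of both directions with S. aureus. Against vehicle 2 of 8 fell, Col14a1 and Col19a1, where 2.97% of all genes fell. Against A. faecalis Col12a1 rose and Col19a1 fell, where 7.62% of all genes rose and 5.06% fell. With A. faecalis against vehicle none was called (1 at an unadjusted p under 0.05, Col19a1 by DESeq2, 0 by limma-voom). The class medians, 0.07 and -0.04 for S. aureus against vehicle and A. faecalis, were near those of all genes.

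Col12a1, the type XII chain found in tissues under load and in wounds, was at 802, 637, 237 and 570 CPM with vehicle, 579, 400, 366 and 385 CPM with A. faecalis, and 809, 789, 1175 and 1170 CPM with S. aureus. S. aureus was above all A. faecalis libraries and overlapped vehicle only at vehicle library 1. It rose 2.28-fold against A. faecalis (log2 fold change 1.19, SE 0.311, adjusted p = 0.0283), and its 1.76-fold higher level against vehicle did not pass by edgeR (0.81, SE 0.309, adjusted p = 0.119) and was called by DESeq2. The call was lost in 5 of 12 fits, those without A. faecalis 2, 3 or 4 or S. aureus 3 or 4, with an adjusted p up to 0.0862.

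Col14a1, the type XIV chain that limits fibril growth in skin, was at 228, 163, 227 and 136 CPM with vehicle, 137, 160, 191 and 148 CPM with A. faecalis, and 134, 67.2, 110 and 78.0 CPM with S. aureus. All S. aureus libraries were the lowest, although the highest of them was close to the lowest of the other groups. It fell 1.94-fold against vehicle (log2 fold change -0.95, SE 0.229, adjusted p = 0.0326) and differed by -0.71 (SE 0.228, adjusted p = 0.0629) against A. faecalis. The call was lost in 5 of 12 fits (vehicle 1 or 3, S. aureus 2, 3 or 4; adjusted p up to 0.0939), with a log2 fold change of -0.84 (adjusted p = 0.066) without vehicle library 3. The difference from A. faecalis passed without vehicle 3 or 4 or S. aureus 1, within a log2 range of -0.89 to -0.57. It also passed with DESeq2, with a replicate block and in a fit of only those 2 groups. The call against vehicle did not hold in a fit of only the S. aureus and vehicle libraries.

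Col19a1, a rare chain of basement membrane zones, was the collagen with the smallest adjusted p of all. It was at 1.01, 1.05, 0.521 and 0.820 CPM with vehicle, 1.40, 1.95, 1.57 and 1.52 CPM with A. faecalis, and 0.340, 0.466, 0.279 and 0.418 CPM with S. aureus. No 2 groups overlapped, with A. faecalis highest and S. aureus lowest. The fall with S. aureus was 4.23-fold against A. faecalis (log2 fold change -2.08, SE 0.259, adjusted p = 0.00104) and 2.23-fold against vehicle (-1.15, SE 0.26, adjusted p = 0.0266). The higher level with A. faecalis than with vehicle (0.92, SE 0.242) had an adjusted p of 0.413 by edgeR and was called by DESeq2. The call between the bacteria held in all 12 fits that left out 1 library, and that against vehicle was lost in 5 (vehicle 1 or 2, S. aureus 1, 3 or 4; adjusted p up to 0.0859).

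The class of other collagens held the beaded-filament type VI chains, the short-chain types VIII and X, and the transmembrane types XIII, XXIII and XXV. With S. aureus against vehicle 2 of 14 rose and 2 fell (28.6% beside 6.84% of all genes), and against A. faecalis 3 rose and none fell (21.4% beside 12.7%). With A. faecalis against vehicle none was called (1 at an unadjusted p under 0.05, 0 by DESeq2 and by limma-voom).

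The common type VI chains were not called. Col6a3 was at 1497, 1065, 1054 and 868 CPM with vehicle, 1330.5, 899, 1165 and 835 CPM with A. faecalis, and 1234, 1263, 1348 and 1361 CPM with S. aureus, with overlap and a log2 fold change against vehicle of 0.22 (adjusted p = 0.47) for S. aureus. Col6a2 was at 757, 529, 1015 and 509 CPM with vehicle, 658, 523, 689 and 510 CPM with A. faecalis, and 586, 493, 461 and 508 CPM with S. aureus. Its log2 fold change of -0.46 (adjusted p = 0.177) against vehicle went the other way, as did that of Col6a1 (-0.36, adjusted p = 0.265). Vehicle library 3 was the highest of all 12 for Col6a1 and Col6a2.

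The rare type VI chains Col6a5 and Col6a6, similar genes that can each replace the alpha3 chain, fell with S. aureus. Col6a6 was at 9.65, 4.64, 22.6 and 6.45 CPM with vehicle, 5.16, 4.46, 7.10 and 3.32 CPM with A. faecalis, and 2.82, 2.31, 2.01 and 1.54 CPM with S. aureus. S. aureus was below all other libraries, and the fall against vehicle passed (log2 fold change -2.32, SE 0.454, adjusted p = 0.0171). Vehicle library 3, the one with the high adipocyte markers, was far above the rest. Without it the log2 fold change was -1.66 (adjusted p = 0.0153), and the call was lost in the fits without S. aureus 3 or 4 (adjusted p up to 0.0608). Against A. faecalis the log2 fold change was -1.21 (adjusted p = 0.0957). It passed without vehicle library 3, with DESeq2 and in a fit of only those 2 groups. In a fit of only the S. aureus and vehicle libraries, the call of Col6a6 against vehicle was lost. The part of adipocyte markers in the differences of Col6a5, Col6a6 and the fibril regulators below was not tested.

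Col6a5 was at 3.12, 1.48, 12.6 and 5.26 CPM with vehicle, 1.84, 2.28, 2.95 and 2.66 CPM with A. faecalis, and 2.01, 0.656, 1.30 and 0.532 CPM with S. aureus. Here S. aureus library 1 was above vehicle library 2, so the groups overlapped. It fell 5.08-fold against vehicle (log2 fold change -2.35, SE 0.603, adjusted p = 0.0413), and without vehicle library 3 the log2 fold change was -1.56 (adjusted p = 0.0806). The call was lost in 9 of 12 fits (vehicle 1 or 3, any 1 A. faecalis library, or S. aureus 2, 3 or 4; adjusted p up to 0.111), and with limma-voom, with no filter on low counts and with a replicate block. Reads shared with similar type VI genes may be divided between them by the authors' counting, so the values of Col6a4, Col6a5 and Col6a6 carry that uncertainty.

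Col13a1 and Col23a1, both transmembrane collagens held in the membrane of the cell that makes them, rose with S. aureus in both comparisons. Col13a1 was at 1.60, 2.59, 1.18 and 1.91 CPM with vehicle, 1.96, 1.79, 1.46 and 1.07 CPM with A. faecalis, and 5.07, 5.65, 5.26 and 7.60 CPM with S. aureus. The lowest S. aureus library was well above the highest of all others. It rose 3.25-fold against vehicle (log2 fold change 1.70, SE 0.258, adjusted p = 0.00854) and 3.74-fold against A. faecalis (1.90, SE 0.26, adjusted p = 0.00154).

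Col23a1 was at 24.8, 15.4, 15.1 and 21.3 CPM with vehicle, 23.5, 25.2, 22.5 and 14.5 CPM with A. faecalis, and 33.8, 44.7, 42.3 and 43.5 CPM with S. aureus, again with all S. aureus libraries on top. It rose 2.14-fold against vehicle (log2 fold change 1.10, SE 0.197, adjusted p = 0.0126) and 1.91-fold against A. faecalis (0.94, SE 0.196, adjusted p = 0.0105). All 4 calls of Col13a1 and Col23a1 held in each of the 12 fits that left out 1 library. The third transmembrane chain, Col25a1, at 0.300, 0.313 and 0.545 CPM on average, had a log2 fold change of 0.86 (adjusted p = 0.117) against vehicle and was not called. Neutrophil markers were also highest in the S. aureus libraries, as given above, and their part in these differences was not tested.

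The sequences before the starts of Col13a1 and Col23a1 are shown because these genes rose together. They are the 250 bases upstream from RefSeq in build GRCm38.p6, at chr10:61979109-61979358 on the minus strand for Col13a1 and chr11:51289670-51289919 on the plus strand for Col23a1. Neither window holds an annotated exon. Capitals mark matches to any of the 4 motifs named above, on either strand: the Col13a1 window has 1 TATA match and no GC box, and the Col23a1 window has 1 GC box and no TATA match. The other motifs were found in neither.
Col13a1: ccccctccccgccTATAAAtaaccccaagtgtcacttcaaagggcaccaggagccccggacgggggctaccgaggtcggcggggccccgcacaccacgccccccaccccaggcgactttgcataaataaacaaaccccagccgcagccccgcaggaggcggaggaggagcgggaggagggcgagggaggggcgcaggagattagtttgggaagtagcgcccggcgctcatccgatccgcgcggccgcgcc
Col23a1: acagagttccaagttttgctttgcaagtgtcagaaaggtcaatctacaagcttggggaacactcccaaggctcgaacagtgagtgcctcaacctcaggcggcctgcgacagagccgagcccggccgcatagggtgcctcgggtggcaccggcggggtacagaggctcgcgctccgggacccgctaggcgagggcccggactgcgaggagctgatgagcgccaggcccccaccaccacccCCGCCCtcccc

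Col8a1, a network-forming chain of vessel walls and other tissues, was called only between the bacteria. It was at 47.6, 38.7, 33.4 and 39.5 CPM with vehicle, 37.6, 31.7, 34.0 and 27.1 CPM with A. faecalis, and 41.4, 41.0, 58.1 and 53.1 CPM with S. aureus. S. aureus was above all A. faecalis libraries, 1.48-fold (log2 fold change 0.57, SE 0.146, adjusted p = 0.0258), and overlapped vehicle (0.28, adjusted p = 0.236). The call was lost in 5 of 12 fits, those without A. faecalis 2, 3 or 4 or S. aureus 3 or 4, with an adjusted p up to 0.0879. Col10a1, the chain of hypertrophic cartilage, was at 3.58, 4.04 and 3.00 CPM on average and was not called. The remaining FACIT and other chains (Col9a2, Col9a3, Col16a1, Col20a1, Col22a1, Col6a4, Col8a2, Col26a1 and Col28a1) were not called in any comparison and averaged from 0.186 CPM (Col9a2) to 71.8 CPM (Col16a1) over the 12 libraries.

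**Figure D4:**
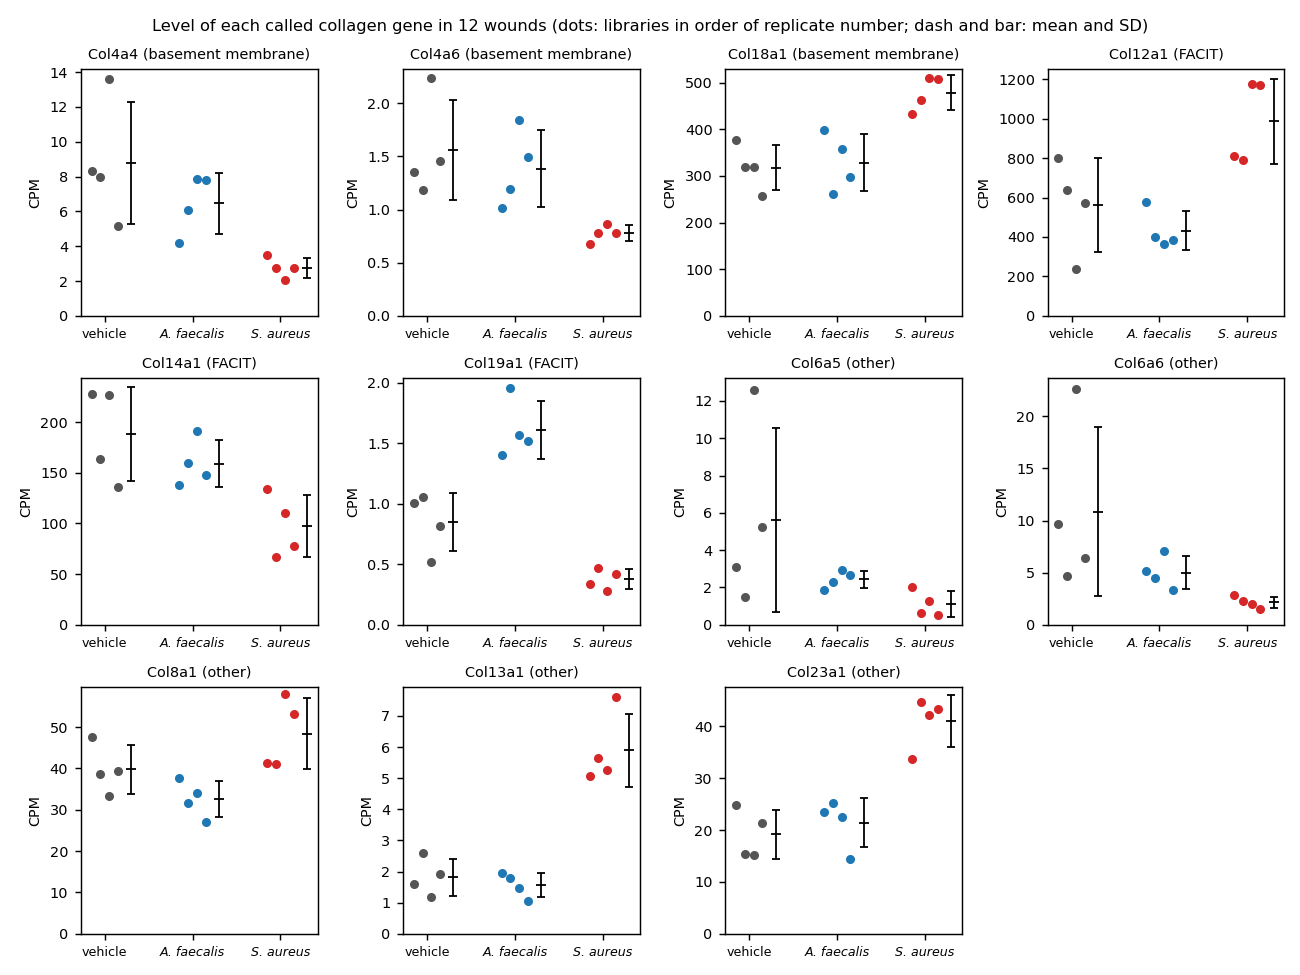
CPM of the 11 collagen genes called in any comparison in each of the 12 libraries, with group mean and SD as a dash and bar (n = 4). The S. aureus libraries do not overlap either other group for Col4a4, Col4a6, Col18a1, Col14a1, Col19a1, Col6a6, Col13a1 and Col23a1. Vehicle library 3 is the highest point for Col4a4, Col4a6, Col6a5 and Col6a6.

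The genes that fold, cut, cross-link, arrange and bind collagen were described from 4 lists. In the comparison of A. faecalis with vehicle none of their tested members was called by edgeR or limma-voom, and Itga2 was by DESeq2. An unadjusted p under 0.05 was reached by 3, all among the 10 tested receptors, beside 7.68% of all genes. None of the edgeR calls named below for S. aureus against vehicle held in the fit of only those 2 groups.

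Some of the folding and modification genes, which hydroxylate and chaperone new chains, rose with S. aureus. Of 24 tested, edgeR called 3 higher and none lower against vehicle, where 3.87% of all genes were higher and 2.97% lower, with a median log2 fold change of 0.26 (all genes -0.04) and a positive value for 23. Against A. faecalis it called 7 higher and none lower, where 7.62% of all genes were higher and 5.06% lower, with a median of 0.30. Of these 7, the calls of P4hb, Serpinh1, Crtap and Leprel4, named after their values were seen, were all lost without A. faecalis 3 or 4 or S. aureus 3 or 4, and those of Lepre1, Leprel1 and Creb3l1 held in all 12 fits that left out 1 library. The summed level of the whole list was 3368 to 4244 CPM with S. aureus, above the 2506 to 3135 CPM of vehicle and the 2781 to 3034 CPM of A. faecalis. P4hb and Serpinh1 weigh most in this sum, at means of 774 and 439 CPM with vehicle and 1020 and 609 CPM with S. aureus. Against vehicle edgeR called neither, and DESeq2 called both. The 3 genes called against vehicle encode members of the prolyl 3-hydroxylase family: Lepre1 (now P3h1), Leprel1 (P3h2) and Leprel4 (P3h4).

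Lepre1 was at 75.0, 70.04, 66.1 and 65.9 CPM with vehicle and 91.5, 82.2, 108 and 99.4 CPM with S. aureus (log2 fold change 0.46, SE 0.0995, adjusted p = 0.0241). Leprel1, whose enzyme acts mainly on basement membrane collagen, was at 13.8, 17.5, 11.8 and 15.6 CPM with vehicle and 20.2, 27.9, 24.4 and 21.4 CPM with S. aureus (0.68, SE 0.152, adjusted p = 0.0264). Leprel4 was at 20.6, 19.7, 12.1 and 19.8 CPM with vehicle and 29.2, 26.6, 27.5 and 27.6 CPM with S. aureus (0.62, SE 0.155, adjusted p = 0.0373). For each of the 3, every S. aureus library was above every vehicle library. These 3 calls were lost in 2, 4 and 5 of the 12 fits that left out 1 library. Lepre1 lost it without S. aureus 3 or 4, Leprel1 also without vehicle 1 or S. aureus 2, and Leprel4 without A. faecalis 3 or any 1 S. aureus library (adjusted p up to 0.0859, 0.0818 and 0.0947). Against A. faecalis, the log2 fold change of Leprel1 was 0.92 (adjusted p = 0.00356) and that of Lepre1 0.48 (adjusted p = 0.00948). Creb3l1, a transcription factor for collagen and secretion genes, was at 69.6, 77.3, 65.1 and 63.1 CPM with A. faecalis and 146, 115, 170 and 161 CPM with S. aureus (1.11, SE 0.229, adjusted p = 0.00985).

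Of 13 genes that cut and cross-link procollagen, edgeR called 2 higher with S. aureus against vehicle (3.87% of all genes) and 3 against A. faecalis (7.62%), and none lower. Pcolce2, named after its values were seen, had a log2 fold change of -1.05 against vehicle (adjusted p = 0.0524) and was called lower by DESeq2. Lox, also named after its values were seen, had one of 0.53 (adjusted p = 0.0537), without overlap, and was called higher by DESeq2 and limma-voom. Bmp1, the proteinase that removes the C-terminal propeptide, was at 159, 149, 97.3 and 126 CPM with vehicle and 196, 189, 216 and 197 CPM with S. aureus (log2 fold change 0.59, SE 0.144, adjusted p = 0.0337). Loxl4, a lysyl oxidase, was at 16.8, 18.7, 15.5 and 20.3 CPM with vehicle and 20.6, 23.0, 30.4 and 26.4 CPM with S. aureus (0.49, SE 0.128, adjusted p = 0.0419). Neither gene overlapped between these groups. Leaving out 1 library lost these calls in 4 fits for Bmp1 (A. faecalis 3, S. aureus 2, 3 or 4; adjusted p up to 0.104) and in 10 for Loxl4 (all but those without vehicle 4 or S. aureus 1; up to 0.129), and Loxl4 also with a replicate block and with no filter on low counts. Against A. faecalis the called genes were Loxl4 (0.60, adjusted p = 0.0107), Bmp1 (0.56, adjusted p = 0.0265) and Tll1, a relative of Bmp1 (0.42, adjusted p = 0.0242, at 10.7 to 14.1 CPM with A. faecalis and 15.7 to 18.0 CPM with S. aureus), of which Bmp1 and Tll1 each lost the call in 5 fits (A. faecalis or S. aureus libraries).

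Fibril regulators are proteins that bind fibrils or affect their width and spacing, among them small leucine-rich proteoglycans. With S. aureus against vehicle edgeR called 5 of 11 tested lower and none higher, where 2.97% of all genes were lower, with a median log2 fold change of -0.85 (all genes -0.04). Bgn (biglycan), named after its values were seen, had a log2 fold change of 0.43 (adjusted p = 0.059) and was called higher by DESeq2 and limma-voom. Ogn (osteoglycin) was at 93.5, 65.6, 154 and 60.3 CPM with vehicle and 53.3, 27.3, 38.6 and 27.8 CPM with S. aureus (log2 fold change -1.35, SE 0.292, adjusted p = 0.0241). Vehicle library 3 was again the highest and the groups did not overlap. Fmod (fibromodulin) was at 7.69, 3.83, 7.97 and 4.97 CPM with vehicle and 3.42, 1.73, 2.39 and 2.28 CPM with S. aureus (-1.32, SE 0.286, adjusted p = 0.0241). Tnxb (tenascin X) was at 29.7, 22.2, 42.0 and 25.3 CPM with vehicle and 18.6, 8.69, 7.14 and 9.99 CPM with S. aureus (-1.43, SE 0.323, adjusted p = 0.027). Aspn (asporin, -1.11, adjusted p = 0.043) and Dpt (dermatopontin, -0.97, adjusted p = 0.0472) are named after their values were seen, and Dpt is also in the fibroblast list.

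Without vehicle library 3 the calls of Ogn (-0.98, adjusted p = 0.0321) and Fmod (-1.16, adjusted p = 0.043) held, and those of Tnxb (-1.20, adjusted p = 0.0531), Aspn (-0.89, adjusted p = 0.0931) and Dpt (-0.66, adjusted p = 0.087) were lost. Leaving out S. aureus 2, 3 or 4 in turn lost all 5 calls, and leaving out vehicle 1 lost all but Ogn. Aspn and Dpt also lost theirs without any 1 A. faecalis library. Against A. faecalis the median was -0.19, and Ogn (-1.12, adjusted p = 0.0272) and Fmod (-1.08, adjusted p = 0.0297) fell, where 5.06% of all genes fell. Each of these lost the call in 6 fits, those without A. faecalis or S. aureus 2, 3 or 4. The summed level of the 12 regulators was 4448 to 6881 CPM with vehicle and 5190 to 6519 CPM with S. aureus, and the ranges overlapped.

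Of 10 collagen receptors and uptake genes tested, none was called with S. aureus against vehicle by edgeR or limma-voom, and DESeq2 called Itga2 and Itga11. An unadjusted p under 0.05 was reached by 4, beside 27.0% of all genes. Against A. faecalis edgeR called 1 higher and 1 lower, where 7.62% of all genes were higher and 5.06% lower. Between the bacteria, Itga2, the collagen-binding integrin subunit of keratinocytes and platelets, was at 16.01, 14.8, 13.8 and 14.3 CPM with A. faecalis and 23.9, 25.1, 27.9 and 21.3 CPM with S. aureus. It was higher in every S. aureus library (log2 fold change 0.74, SE 0.0937, adjusted p = 0.00104), and vehicle was at 18.5 to 21.3 CPM. Lair1, an inhibitory collagen receptor of leukocytes, was at 51.3, 101, 69.5 and 88.9 CPM with A. faecalis and 39.9, 26.5, 39.9 and 25.2 CPM with S. aureus (log2 fold change -1.24, SE 0.255, adjusted p = 0.00959). Summed monocyte and macrophage markers were 4512 to 6697 CPM with A. faecalis and 3003 to 3777 CPM with S. aureus, and their part in the Lair1 difference was not tested.

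**Figure D5:**
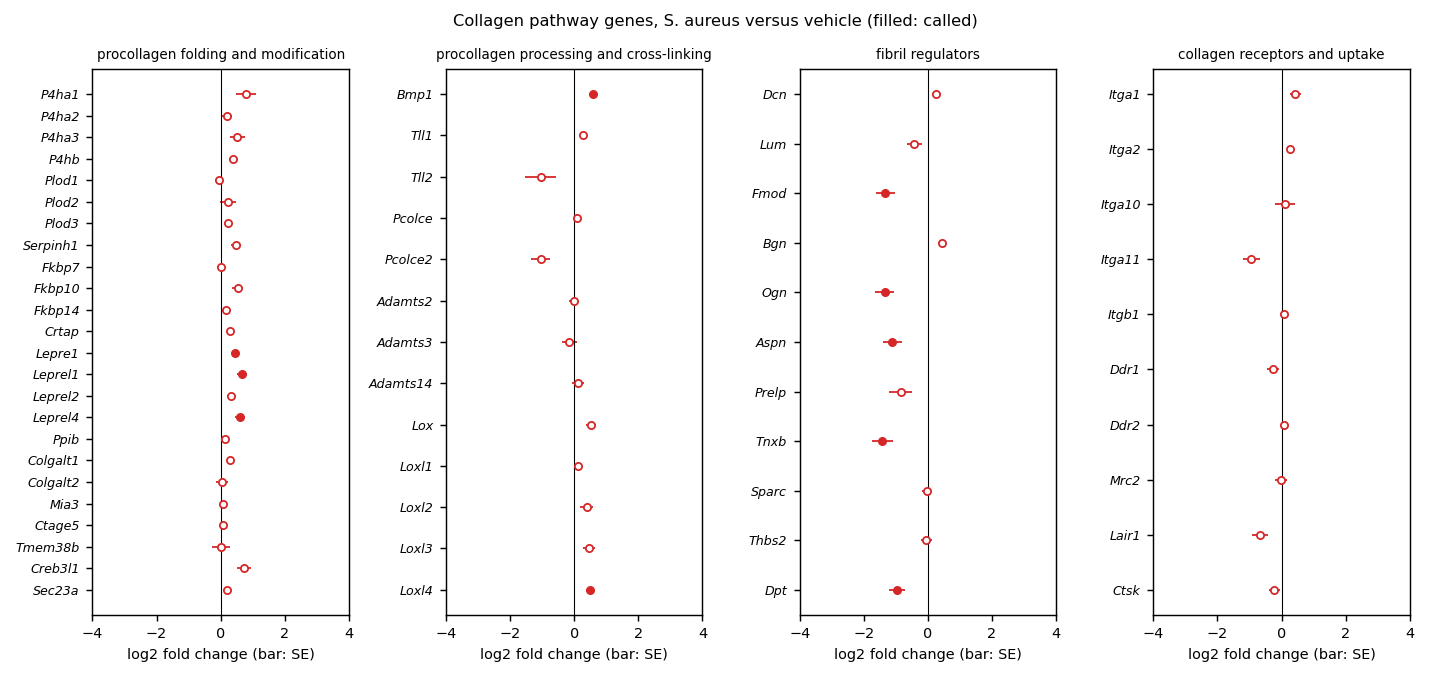
Log2 fold change with S. aureus against vehicle of the tested genes of the 4 collagen pathway lists, with the standard error as a bar and filled points for called genes. In the folding list 23 of 24 points lie above 0, and in the fibril regulator list the 5 filled points lie below 0.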

How the data were processed

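Deposited values were estimated counts per gene for 12 libraries, 1 mouse each per the series' design text. Per the submitters' processing notes the authors used kallisto 0.48.0, FastQC 0.12.1, R 4.1.3, DESeq2 1.34.0 and build GRCm39, with no roles given. No label names the step from transcripts to genes or the use of strand. Kallisto divides reads between similar transcripts, so close paralogs are uncertain.

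One unnamed entry (0.00909% to 0.0151% of counts) was left out. Estimated counts were rounded and tested in edgeR 4.0.16 (R 4.3.3): 1 model with 3 group means, TMM scaling, filterByExpr (minimum count 10, total 15), robust two-sided quasi-likelihood test, Benjamini-Hochberg adjustment over 18218 genes and calls at 0.05. The script was tested on simulated data. The SE was derived from the log2 fold change and the F statistic of the quasi-likelihood test. Intervals are 95% normal intervals from that SE, narrower than the test implies, so they can exclude 0 where the unadjusted p is over 0.05. Replicates differed by 28.0 to 460 in chi-square per degree of freedom, so none looked deposited in duplicate.

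The alternatives tried were upper-quartile scaling or size factors of DESeq2 1.42.0, its Wald test, limma-voom (limma 3.58.1), no low-count filter, a mean of at least 1 CPM, fits of only the 2 groups compared, a threshold of 0.1, a replicate block, each library left out, and, for ratios, 1 CPM added. Lengths are of the longest GENCODE M21 protein-coding transcript, whose build, GRCm38, differs from the authors'.

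The members and lists were chosen with earlier results of these data known. Named with every library's value were the 3 fibrillar chains and the 2 chains of each other class with the highest mean CPM (not per kb), and every called collagen. Up to 3 called genes per pathway list and comparison, by adjusted p, are named with values or fold changes. Col4a3, Col4a5, Col7a1, Col11a1, Col24a1, Col6a1, Col25a1 and Col10a1 are also given, chosen after their values were seen. Of 139 symbols on the lists, 138 were found. Adipocyte, skeletal muscle, pericyte and Schwann cell lists had no called member in any comparison by edgeR. Skeletal muscle summed to 812 to 1495 CPM over the 12 libraries, pericyte to 311 to 702 CPM and Schwann cell to 81.8 to 216 CPM.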

Additional observations from a re-analysis of the deposited data

Results flagged for a closer look

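Each of 75 groups of 4 values was examined for a single library far from the other 3, and 3 stood out, where chance alone gives about 1 in 20. Col12a1 was at 579 CPM in A. faecalis library 1, against 366 to 400 CPM in the other 3. The summed level of the FACIT class, of which Col12a1 is the most abundant member, was 797 CPM in the same library, against 603 to 629 CPM. The ratio of Col3a1 to Col1a1 was 1.57 in vehicle library 3, against 1.04 to 1.09 in the other vehicle libraries. That library is the one with the high adipocyte markers, and their part in the ratio was not tested.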

How the results depend on the processing

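Against the 0, 9 and 8 collagens called for A. faecalis against vehicle, S. aureus against vehicle and S. aureus against A. faecalis, DESeq2 called 2, 12 and 14. A fit of only the 2 groups compared called 3 in the second comparison (Col4a4, Col13a1 and Col23a1), and a threshold of 0.1 called 15 in the third. The counts ranged from 0 to 0, from 3 to 8 and from 3 to 13 when each library was left out in turn. In the second they were 5 without vehicle 1 or 3 and 3 without S. aureus 3 or 4. In the third they were 13 without vehicle 3, 3 without A. faecalis 3 or 4 or S. aureus 3, and 4 without A. faecalis 2 or S. aureus 4. The cause was not tested. The share of all genes called under each setting of this section is not given. These counts are therefore not set against all genes and are no result about the collagens.

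Replicate numbers did not pair the libraries: 3 of 12 pairs of like number had a correlation of deviations over 0.1 (range -0.21 to 0.18), and 3 of 12 libraries correlated best with their own number. With a replicate block the counts were 0, 9 and 11, keeping 8 of the 9 and all 8. No other alternative changed a count by over 1.5 times. The ratio tests could pass after adjustment only with most of the 9 at the smallest p, so their alternatives say nothing of stability. No scaling moved the median of all genes by over 0.1.

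Signs changed only for uncalled differences near 0 when 1 library was left out. For A. faecalis against vehicle the log2 fold changes ran from -0.20 to 0.046 (Col3a1), -0.20 to 0.11 (Col6a3), -0.35 to 0.030 (Col13a1), -0.18 to 0.020 (Col4a1), -0.24 to 0.028 (Col4a2), -0.33 to 0.065 (Col4a6), -0.36 to 0.0060 (Col6a2), -0.049 to 0.16 (Col18a1), -0.075 to 0.15 (Bmp1), -0.058 to 0.071 (Crtap), -0.087 to 0.032 (Lepre1), -0.12 to 0.10 (Leprel4), -0.38 to 0.14 (Ogn), -0.14 to 0.053 (P4hb) and -0.21 to 0.035 (Serpinh1). Crtap was also at 0.00565 with the 1 CPM filter. For S. aureus they ran from -0.062 to 0.30 (Col1a1) and -0.14 to 0.13 (Col1a2) against vehicle and from -0.12 to 0.027 (Col3a1) against A. faecalis. Col4a6, Col19a1 and Col25a1 averaged 1.24, 0.945 and 0.386 CPM, and a limit from depth was not tested. The edgeR p-values set a difference between group means against the spread within groups of these 12 mice only.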
